A study of Drosophila melanogaster with 36 samples.

Results

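The proteasome subunit genes of Drosophila melanogaster were followed across larval brains of 6 genotypes and both sexes. Members were all genes in the count table whose symbol begins with Prosalpha, Prosbeta, Rpn or Rpt followed by a digit. The rule found 48 of 17606 genes. They comprised 32 ubiquitous subunits, with 7 of the alpha ring, 7 of the beta ring, 12 Rpn and 6 Rpt genes, and 16 paralogs whose symbol carries an R or T after the subunit number. All 32 ubiquitous subunits passed the filter on low counts, against 8 of the 16 paralogs, which are described apart.

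The proteasome is the large protease that degrades proteins tagged with ubiquitin. Its core particle is a barrel in which outer rings of alpha subunits control entry and inner rings of beta subunits carry the active sites. The regulatory particle caps the barrel, where Rpn subunits bind and remove ubiquitin and a ring of Rpt ATPases unfolds the substrate. Several fly subunits also have paralogs known mainly from the male germ line. X-linked genes matter here because male flies have a single X, whose transcription the dosage compensation complex raises, and that complex is known to recognise trimethylated lysine 36 of histone H3, the mark that Set2 deposits.

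Brains of wandering third-instar larvae raised at 25 °C were profiled by mRNA sequencing, with 3 libraries in each of 12 groups, 36 in all. H3.3WTH3.2K36R larvae, in which the replication-coupled histone H3.2 carries arginine at lysine 36, were compared with H3.3WTH3.2HWT larvae. H3.3K36RH3.2HWT larvae, in which the variant H3.3 carries that change, were compared with H3.3CtrlH3.2HWT larvae, and the Set2 mutant Set21 was compared with yw, always within a sex. The labels do not say whether libraries of a group came from separate animals or pools, so p-values measure the spread between these libraries only. HWT marks the wild-type form of H3.2 in the genotype names, and both the H3.3 control and the H3.3 mutant had low His3.3A, with group means of 65.6 to 69.4 CPM against 249 to 353 CPM in the other 8 groups. Set2 itself averaged 28.9 ± 0.904 CPM (SD, n = 3) in Set21 males and 32.1 ± 1.08 in Set21 females, against 198 ± 2.84 and 185 ± 4.17 in yw. Library totals ran from 82.5 to 143.8 M reads (median 103.0 M), and the 5 neuronal markers elav, nSyb, Syt1, brp and Syn summed to between 2655 and 3478 CPM in every library.

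Levels below are CPM, reads relative to library size after TMM scaling, unless stated per exon length as RPKM. Fold changes are log2 values from edgeR's quasi-likelihood fit over all 36 libraries, and a gene is said to rise or fall where its Benjamini-Hochberg adjusted p over the 12167 genes tested was under 0.05. Each group holds n = 3 libraries.

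Outside Prosalpha1, the ubiquitous subunits were expressed at closely similar levels per exon length. The mean over 36 libraries ran from 87.9 RPKM for Rpn13, a ubiquitin receptor, to 171 RPKM for Prosalpha2, a 1.94-fold range over 31 genes. The 13 core subunits had a median level of 146 RPKM and lay between 129 and 171 RPKM. The 18 regulatory subunits had a median of 121 RPKM and lay between 87.9 and 148 RPKM, with the deubiquitinase Rpn11 at the top. Variation over the 36 libraries was small, with a coefficient of variation from 2.81% for Rpn13 to 9.65% for Prosalpha4. The highest group mean exceeded the lowest by 1.06-fold to 1.29-fold per gene (median 1.13-fold), and for 15 of the 31 genes the lowest group was the H3.3WTH3.2K36R females.

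**Figure D1:**
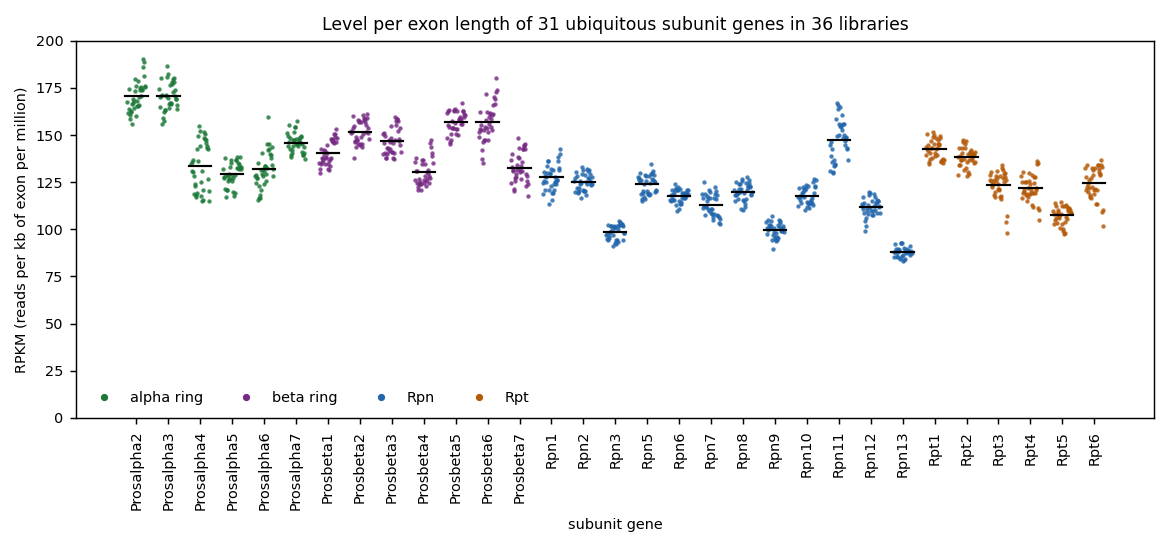
Level per exon length (RPKM, vertical axis) of 31 ubiquitous subunit genes (horizontal axis), with a point for each of 36 libraries and a bar for their mean, coloured by role. All means lie between 87.9 and 171 RPKM, and core subunits lie above most regulatory subunits.

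Prosalpha1 stood apart at a mean of 1.21 RPKM. Its reads matched those of its paralog Prosalpha1R almost exactly, with 64 to 175 reads per library for Prosalpha1, 64 to 176 for Prosalpha1R, identical numbers in 17 of 36 libraries and a difference of at most 4 reads in any library. Reads of such near-identical copies cannot be assigned to either gene in these counts, so neither level is read as expression of that gene. It is counted among the 32, and its only call in a mutant comparison was in Set21 males.

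The subunits also moved together from library to library within groups. Deviations of log2 CPM from the group mean correlated with a median r of 0.69 over the 496 pairs of ubiquitous subunits in 36 libraries, against a median of -0.00048 over all pairs of genes tested. Pairs within the regulatory particle had a median r of 0.76, pairs within the core 0.67 and pairs across both 0.63. Among the 31 subunits other than Prosalpha1, those least tied to the rest were Prosalpha6, with a median r of 0.45, and the catalytic Prosbeta1 with 0.53. Prosalpha1 had 0.37, but its few reads cannot be assigned to it, so this is not read as a trait of that gene. These values share library and depth scaling and are descriptive. The pairs of all genes tested were not matched to the subunits for expression level and include genes with few reads, so the medians are not like for like. Summed over the 32 subunits, the level ran from 5361 to 5894 CPM, a 1.10-fold range, or from 0.534% to 0.597% of reads. Fewer cells of a type and less RNA per cell cannot be told apart in these bulk samples.

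Changes in the mutants were small and went mostly downward. Over the 6 comparisons of a mutant with its control, the largest change among the 31 subunits other than Prosalpha1 was -0.36 on the log2 scale, for Prosalpha4 in H3.3K36RH3.2HWT males. Of the 32 subunits, 17 fell in at least 1 comparison, 5 rose in at least 1, 1 of them (Prosbeta6) did both, and 11 passed the test in none. Of all genes tested, 38.2% fell in at least 1 of the 6, 38.1% rose in at least 1, 8.19% did both and 31.9% passed in none. Those 11 included all 3 catalytic subunits, Prosbeta1, Prosbeta2 and Prosbeta5, and the deubiquitinase Rpn11.

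In H3.3WTH3.2K36R males 7 of 32 subunits fell and 0 rose, where 13.1% of all genes tested fell and 12.3% rose. In females of that genotype 9 fell and 0 rose, where 13.7% of all genes fell and 11.1% rose. The median log2 change was -0.044 in males and -0.057 in females, beside 0.0026 and -0.00097 over all genes. In H3.3K36RH3.2HWT males 7 fell and 0 rose, where 4.08% of all genes fell and 5.88% rose, and the median was -0.077 beside 0.0045. In females of that genotype 1 fell and 0 rose, where 2.9% fell and 3.44% rose, and the median was -0.012 beside -0.0002. In Set21 males 13 fell and 4 rose, where 22% of all genes fell and 22.9% rose, with a median of -0.054 beside 0.024. In Set21 females 4 fell and 5 rose, where 21.5% fell and 20.9% rose, with a median of -0.018 beside 0.0068.

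The share of subunits that fell was above that of all genes in both H3.3WTH3.2K36R sexes, in H3.3K36RH3.2HWT males and in Set21 males, near it in H3.3K36RH3.2HWT females and below it in Set21 females. Several of these counts rest on few libraries. In H3.3WTH3.2K36R males the count was 2 without control replicate 1 and 4 without mutant replicate 3. In H3.3WTH3.2K36R females it was 4 without control replicate 1 and 5 without control replicate 3, mutant replicate 1 or mutant replicate 2. In H3.3K36RH3.2HWT males it was 2 without control replicate 1, control replicate 2 or mutant replicate 2, 1 without mutant replicate 1, and 12 without control replicate 3. In Set21 males it was 8 without mutant replicate 2 or mutant replicate 3, and in Set21 females 2 without control replicate 2. Markers of several cell types changed in the same comparisons. The sum of dpn, mira, wor, ase and grh ran from 355 to 423 CPM in H3.3WTH3.2K36R males against 501 to 537 in their controls, and from 388 to 409.6 against 509 to 567 in females. In Set21 it ran from 434 to 555 CPM in males against 547 to 581, and from 469 to 509 in females against 570.4 to 604. Of the 5 markers 3 fell in males and 4 in females of both genotypes, and 0 in H3.3K36RH3.2HWT.

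Of 5 eye and imaginal disc markers, 5 fell in H3.3WTH3.2K36R males, with sums from 82.1 to 87.0 CPM against 118 to 121 in their controls, and 4 in females, with sums from 89.9 to 98.3 against 116 to 122. In each sex of Set21 3 of them fell, with sums from 105 to 107 CPM against 126 to 129.99 in males and from 103 to 106 against 123 to 132 in females, and in each sex of H3.3K36RH3.2HWT 1 fell. Of the 5 neuronal markers, 4 fell in Set21 males and 3 in Set21 females, and 2 rose in H3.3K36RH3.2HWT males. Of 3 glial markers, 2 fell in each sex of Set21, 1 fell in H3.3WTH3.2K36R females and 1 rose in H3.3K36RH3.2HWT males. Of 5 hemocyte markers, 2 fell in each sex of H3.3WTH3.2K36R, and of 6 ring gland markers 1 fell in its males and 3 in its females. In Set21, 1 hemocyte marker rose and 1 fell in males, and 1 rose in females. Of 6 fat body markers, 2 fell in Set21 females. Their sums varied within groups, as from 39.5 to 503 CPM in H3.3WTH3.2HWT males and from 5.60 to 286 in H3.3WTH3.2K36R females. Of 6 salivary gland markers, 1 rose in H3.3WTH3.2K36R females and 2 fell in H3.3K36RH3.2HWT males. The part of these markers in the subunit changes was not tested.

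**Figure D2:**
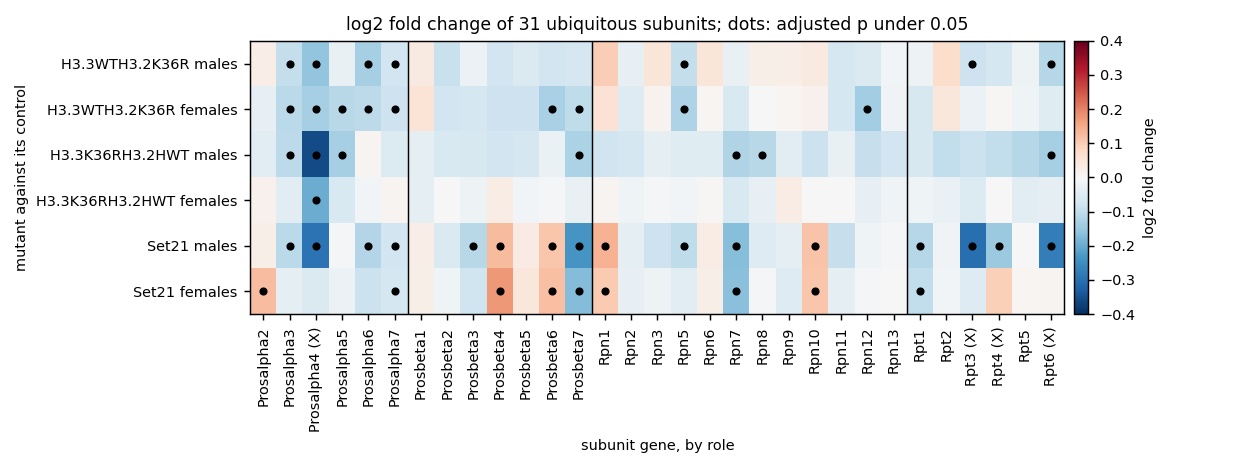
Log2 fold change (colour, red above 0 and blue below) of 31 ubiquitous subunits (columns, grouped by role, X-linked genes marked) in 6 comparisons of a mutant with its control (rows). Dots mark adjusted p under 0.05; the deepest falls are Prosalpha4 in H3.3K36RH3.2HWT males and in Set21 males and Rpt3 and Rpt6 in Set21 males.

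The X-linked subunits responded to Set21 in a way that differed between the sexes. Of the 32, 4 are on the X: Prosalpha4 of the alpha ring (FBgn0004066) and the ATPases Rpt3 (FBgn0028686), Rpt4 (FBgn0028685) and Rpt6 (FBgn0020369). All 4 fell in Set21 males and 0 of 4 passed the test in Set21 females, where Rpt4 passed as a rise under 4 of 11 alternative settings. Among all X-linked genes tested, 40.7% fell in Set21 males and 22.7% in Set21 females. Of 6 ring gland markers, 4 rose in Set21 males, with sums from 230.3 to 325 CPM against 79.0 to 222 in yw males, and 0 in Set21 females, with sums from 244 to 283 against 141 to 227. Their part in the X-linked changes was not tested.

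Rpt3 read 161, 166 and 153 CPM in the 3 Set21 male libraries and 197, 201 and 194 CPM in yw males, a log2 change of -0.30 ± 0.029 (SE; adjusted p = 1.26e-09). In females it read 199, 202 and 196 CPM in Set21 and 205, 208 and 204 CPM in yw, a change of -0.05 ± 0.029 (SE; adjusted p = 0.167). All male mutant libraries lay far below all male controls, while the female groups lay close together without overlapping.

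Prosalpha4 read 149, 142 and 135 CPM in Set21 males against 177, 173 and 172 CPM in yw males, a change of -0.29 ± 0.038 (SE; adjusted p = 2.32e-07). In females it read 168, 169 and 168 against 174, 178 and 174 CPM, a change of -0.058 ± 0.037 (SE; adjusted p = 0.222). The groups did not overlap in either sex, and the female groups differed by a few CPM.

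Rpt6 read 153, 155 and 143 CPM in Set21 males against 183, 181 and 182 CPM in yw males, a change of -0.28 ± 0.042 (SE; adjusted p = 3.74e-06). In females it read 188, 192 and 187 against 188, 188 and 185 CPM, a change of 0.012 ± 0.042 (SE; adjusted p = 0.843). Again the male libraries separated, and the female libraries overlapped. The exons of Rpt6 overlap the opposite-strand gene CG1801 over 13% of their length. CG1801 held 1879 reads over the 36 libraries, and its part in the Rpt6 counts was not tested.

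Rpt4 read 163, 162 and 153 CPM in Set21 males against 175, 178 and 177 CPM in yw males, a change of -0.15 ± 0.039 (SE; adjusted p = 0.00302). In females it read 199, 198 and 198 against 183, 187 and 188 CPM, a change of 0.094 ± 0.039 (SE; adjusted p = 0.0553). The female mutant libraries lay above all female controls, the opposite order to the males. This female rise passed the test under 4 of 11 alternatives, among them the fit with replicate numbers as a block (adjusted p = 0.0205). The exons of Rpt4 overlap those of wuho on the opposite strand over 6.35% of their length, and wuho had log2 changes of -0.22 (adjusted p = 1.68e-06) in Set21 males and 0.14 (adjusted p = 0.000803) in Set21 females. No source used here names the strand setting of the counting, so reads in the overlap could come from either gene.

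The difference of the Set21 response between the sexes was itself tested. The male response was below the female response for all 4, with a log2 change of -0.25 ± 0.041 (SE; adjusted p = 0.000272) for Rpt3, -0.29 ± 0.059 (SE; adjusted p = 0.00288) for Rpt6, -0.24 ± 0.053 (SE; adjusted p = 0.00694) for Prosalpha4 and -0.24 ± 0.056 (SE; adjusted p = 0.00884) for Rpt4. None of the 28 autosomal subunits passed this test, and their differences had a median of -0.013. Among all genes tested, 2.55% had a lower male response and 0.879% a higher one, and among X-linked genes 14.4% had a lower one. All 4 X-linked subunits remained called in Set21 males under each of 11 alternative settings and in the sex difference under each of 17, including every left-out library, with a largest adjusted p of 0.048 and 0.0397.

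**Figure D3:**
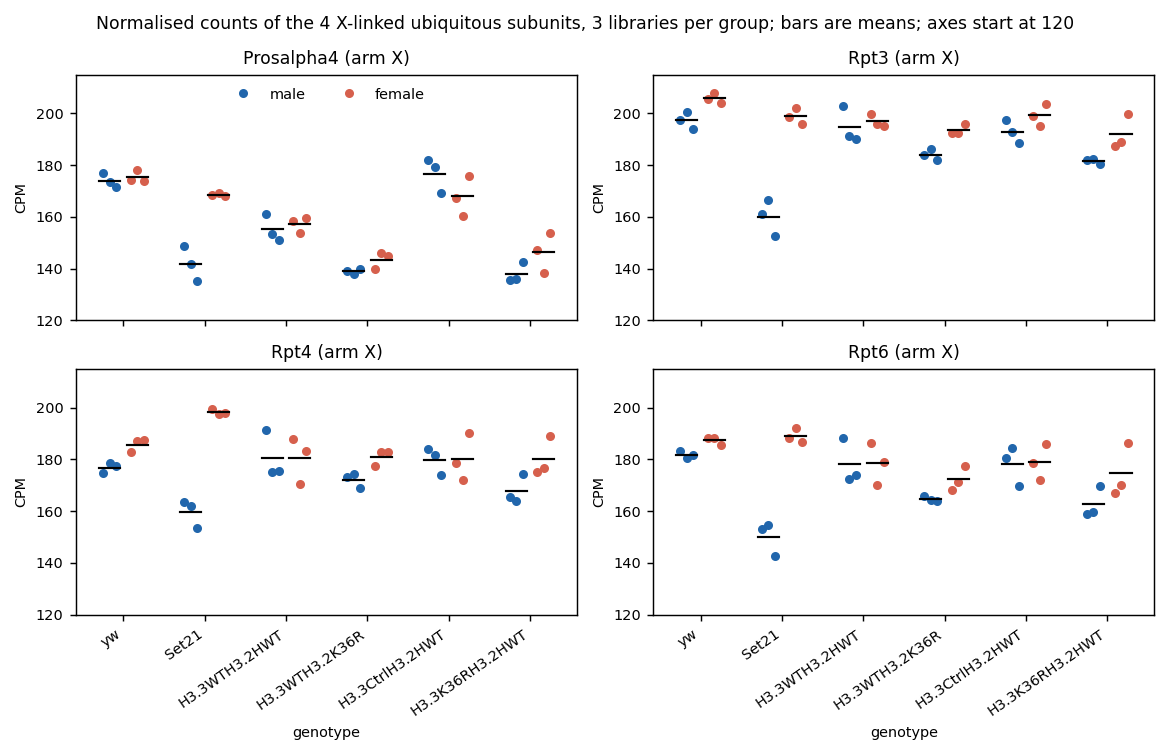
Normalised counts (CPM, vertical axes that start above 0) of the 4 X-linked ubiquitous subunits by genotype, with a point for each library, males blue and females red, and bars for group means. The Set21 male libraries lie between 135 and 166 CPM over the 4 genes, below all yw male libraries of the same gene.

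Expressed as a share of the summed subunit level, the X-linked 4 made up 12.66% ± 0.0512 (SD) in yw males, with libraries from 12.61% to 12.71%, and 10.997% ± 0.320 in Set21 males, with libraries from 10.63% to 11.22%. In females the share was 12.97% ± 0.0429 in yw and 13.03% ± 0.0860 in Set21. It was also lower in males of the histone mutants than in their controls, at 11.85% ± 0.135 against 12.4995% ± 0.241 for H3.3WTH3.2K36R and 11.96% ± 0.0168 against 12.65% ± 0.10 for H3.3K36RH3.2HWT. In females of these genotypes it was 12.76% ± 0.103 against 12.81% ± 0.0790, and 12.53% ± 0.0991 against 12.95% ± 0.0623. The male libraries of each mutant lay below those of its control, and of the females only those of H3.3K36RH3.2HWT did so without overlap.

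In the histone mutants the sex difference of the response passed the test for 0 of the 32 subunits. Among all genes 0.0493% had a lower male response in either mutant, 0.0164% had a higher one in H3.3WTH3.2K36R and 0.132% in H3.3K36RH3.2HWT, and among X-linked genes 0.0992% and 0.298% had a lower one. For the X-linked 4 these differences had a median of -0.061 in H3.3WTH3.2K36R, beside 0.023 for the 28 autosomal subunits. In H3.3K36RH3.2HWT the median was -0.098 beside -0.062, and 27 of the 28 autosomal subunits were negative as well, so the X-linked genes did not stand alone there. In H3.3WTH3.2K36R males 3 of the 4 fell, where 18.4% of X-linked genes fell: Prosalpha4, with a log2 change of -0.16 ± 0.038 (SE; adjusted p = 0.00212), Rpt6, with a log2 change of -0.11 ± 0.042 (SE; adjusted p = 0.0457) and Rpt3, with a log2 change of -0.081 ± 0.029 (SE; adjusted p = 0.0379). Rpt3 lost the call without control replicate 1 or mutant replicate 3, and Rpt6 without control replicate 1, mutant replicate 2 or mutant replicate 3. Rpt4 had a log2 change of -0.07 ± 0.039 (SE; adjusted p = 0.209). In H3.3K36RH3.2HWT males 2 of the 4 fell, where 9.42% of X-linked genes fell, namely Prosalpha4 and Rpt6. Rpt6 had a log2 change of -0.13 ± 0.042 (SE; adjusted p = 0.042) and lost the call without control replicate 1, control replicate 2, mutant replicate 1 or mutant replicate 2. In females 1 of the 4 fell in each of these mutants, Prosalpha4, where 14.8% and 7.24% of X-linked genes fell.

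**Figure D4:**
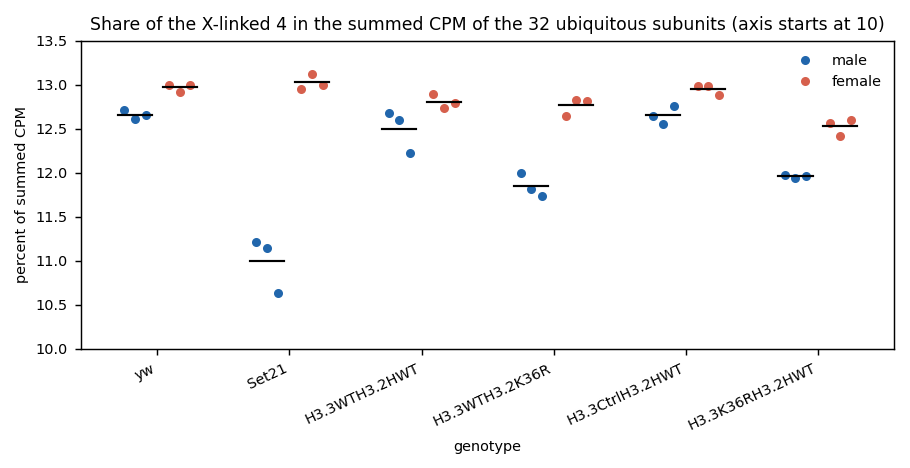
Share of the 4 X-linked genes in the summed CPM of the 32 ubiquitous subunits (percent, vertical axis that starts above 0) by genotype, with a point for each library, males blue and females red, and bars for group means. Set21 males lie lowest at 10.6% to 11.2%.

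At least 1 gene of the alpha ring, which gates the core particle, fell in each of the 6 comparisons. Its 7 genes included 4 that fell in H3.3WTH3.2K36R males, 5 in females of that genotype, 3 in H3.3K36RH3.2HWT males, 1 in females, 5 in Set21 males, Prosalpha1 among them, and 1 in Set21 females. Of all genes tested, 13.1%, 13.7%, 4.08%, 2.9%, 22% and 21.5% fell in that order, so the Set21 female count (14.3%) lay below the share. It rests on Prosalpha7, whose call there was lost under all 11 alternatives. The H3.3K36RH3.2HWT female count rests on Prosalpha4, whose call was lost under 2 of the 11. In the same order, 0, 2, 1, 0, 2 and 1 of the 7 beta genes fell, 1, 2, 2, 0, 2 and 1 of the 12 Rpn genes and 2, 0, 1, 0, 4 and 1 of the 6 Rpt genes, and the classes were not compared by a test. Prosalpha4 fell in 5 of 6 comparisons and was the subunit with the widest spread between groups. In H3.3K36RH3.2HWT males it read 136, 136 and 142 CPM against 182, 179 and 169 CPM in the controls, a change of -0.36 ± 0.038 (SE; adjusted p = 5.94e-08). In females it read 147, 138 and 154 against 167, 160.4 and 176 CPM, a change of -0.20 ± 0.037 (SE; adjusted p = 0.000642). The groups did not overlap in either sex, but the female call was lost in a fit restricted to the libraries compared (highest adjusted p = 0.133 over the alternatives). In H3.3WTH3.2K36R females the change was -0.13 ± 0.038 (SE; adjusted p = 0.0102), and that call was lost without mutant replicate 1. Prosalpha4 also differed between the controls: H3.3CtrlH3.2HWT males lay above H3.3WTH3.2HWT males, with a log2 change of 0.19 ± 0.037 (SE; adjusted p = 0.0013), and H3.3WTH3.2HWT lay below yw, with a log2 change of -0.17 ± 0.037 (SE; adjusted p = 0.00146) in males and -0.16 ± 0.037 (SE; adjusted p = 0.00269) in females. These comparisons share control libraries with those of the mutants.

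Prosalpha3 fell in 4 of 6 comparisons. Its H3.3WTH3.2K36R libraries read 158, 159 and 159 CPM in males and 152, 155 and 153 in females, against 176, 166 and 167 and 169.7, 160.2 and 165 in their controls, changes of -0.094 ± 0.031 (SE; adjusted p = 0.0252) and -0.11 ± 0.031 (SE; adjusted p = 0.0116). It fell with a log2 change of -0.10 ± 0.031 (SE; adjusted p = 0.0295) in H3.3K36RH3.2HWT males and with a log2 change of -0.11 ± 0.031 (SE; adjusted p = 0.00514) in Set21 males. Prosalpha3, Prosalpha4 and Rpt6 were the 3 subunits that fell in males of all 3 mutants, where 0.682% of all genes did so. The male calls of Prosalpha3 were lost without control replicate 1 in H3.3WTH3.2K36R, without any library except control replicate 3 in H3.3K36RH3.2HWT, and without mutant replicate 3 in Set21. The female call was lost without control replicate 1.

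Prosalpha6 fell in both sexes of H3.3WTH3.2K36R, with a log2 change of -0.13 ± 0.037 (SE; adjusted p = 0.0088) in males, where the call was lost without control replicate 3, and -0.10 ± 0.037 (SE; adjusted p = 0.0407) in females, and with a log2 change of -0.12 ± 0.037 (SE; adjusted p = 0.0106) in Set21 males. Like Prosalpha4 it was lower in H3.3WTH3.2HWT than in yw, with a log2 change of -0.13 ± 0.037 (SE; adjusted p = 0.00766) in males, a call lost without H3.3WTH3.2HWT replicate 1, and -0.23 ± 0.037 (SE; adjusted p = 3.94e-05) in females. Prosalpha7 fell, with log2 changes between -0.071 and -0.081, in both sexes of H3.3WTH3.2K36R and of Set21, and in Set21 females the call (adjusted p = 0.0477) was lost when any of the 6 libraries compared was left out. In H3.3WTH3.2K36R it was lost without any of 3 libraries in males (control replicate 1, mutant replicate 1 or 2) and without control replicate 1 or 3 or mutant replicate 2 or 3 in females. Prosalpha5 fell in H3.3WTH3.2K36R females, with a log2 change of -0.11 ± 0.037 (SE; adjusted p = 0.0282), and in H3.3K36RH3.2HWT males, with a log2 change of -0.13 ± 0.037 (SE; adjusted p = 0.0184), where the libraries overlapped. The first call was lost without any library except mutant replicate 3, and the other without control replicate 2 or mutant replicate 1 or 2. Prosalpha2 was the alpha subunit that rose, reading 171, 175 and 174 CPM in Set21 females against 161, 160.0 and 157 CPM in yw females, a change of 0.12 ± 0.036 (SE; adjusted p = 0.00694). In Set21 males it had a log2 change of 0.024 ± 0.036 (SE; adjusted p = 0.616).

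In the beta ring, the 3 subunits that carry the peptidase sites did not pass the test in any comparison of a mutant with its control. Prosbeta1, the caspase-like site, read 131, 125 and 127 CPM in Set21 males and 125, 126 and 124 in yw males, and its log2 change there had a 95% interval of -0.023 to 0.079. For Prosbeta2, the trypsin-like site, the interval in Set21 males was -0.13 to 0.015, and for Prosbeta5, the chymotrypsin-like site, -0.032 to 0.098. The changes nearest the threshold were in H3.3WTH3.2K36R, with -0.09 ± 0.035 (SE; adjusted p = 0.0578) for Prosbeta2 in males and -0.083 ± 0.032 (SE; adjusted p = 0.0559) for Prosbeta5 in females. Of 11 alternative settings, Prosbeta2 passed as a fall in 3 in those males and Prosbeta5 in 1 in those females. Prosbeta1 passed as a rise in 2 of 11 in those females. Prosbeta1 differed between controls, being lower in H3.3WTH3.2HWT than in yw, with a log2 change of -0.09 ± 0.025 (SE; adjusted p = 0.00789) in males and -0.16 ± 0.025 (SE; adjusted p = 2.64e-05) in females.

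The beta subunits without a peptidase site moved in opposite directions in Set21. Prosbeta7 read 153, 151 and 143 CPM in Set21 males against 176, 176 and 173 in yw males, a change of -0.24 ± 0.034 (SE; adjusted p = 1.83e-06). In females it read 157, 149.5 and 156 against 173, 173 and 175 CPM, a change of -0.17 ± 0.034 (SE; adjusted p = 0.000149). Neither sex overlapped its control. Prosbeta4 read 114.7, 113 and 110.2 against 101, 104 and 104 CPM in males and 119, 117 and 119.9 against 103, 107 and 106 CPM in females, log2 changes of 0.13 ± 0.039 (SE; adjusted p = 0.00935) and 0.17 ± 0.039 (SE; adjusted p = 0.000749). Prosbeta6 rose with a log2 change of 0.11 ± 0.034 (SE; adjusted p = 0.00954) in Set21 males and 0.12 ± 0.035 (SE; adjusted p = 0.0062) in Set21 females, and fell with a log2 change of -0.13 ± 0.035 (SE; adjusted p = 0.00614) in H3.3WTH3.2K36R females, where it read 134, 129.5 and 127 against 143, 140.4 and 145 CPM. Prosbeta7 also fell with a log2 change of -0.13 ± 0.034 (SE; adjusted p = 0.0165) in H3.3K36RH3.2HWT males and with a log2 change of -0.10 ± 0.034 (SE; adjusted p = 0.0273) in H3.3WTH3.2K36R females, where the libraries overlapped. With replicate numbers as a block, the last call was lost (adjusted p = 0.0579), as was that of Prosalpha7 in those females (adjusted p = 0.0716). The call in H3.3K36RH3.2HWT males was lost without control replicate 1 or mutant replicate 1, and that in H3.3WTH3.2K36R females without control replicate 1 or 3 or mutant replicate 1 or 2. Prosbeta3 fell in Set21 males, with a log2 change of -0.11 ± 0.035 (SE; adjusted p = 0.0123), and was also lower in H3.3WTH3.2HWT than in yw males, with a log2 change of -0.11 ± 0.035 (SE; adjusted p = 0.0271).

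Among the 12 Rpn genes, the direction in Set21 also differed by gene. Rpn1, a ubiquitin receptor and the second largest source of subunit reads, read 402, 433 and 425 CPM in Set21 males against 377, 384 and 383 in yw males, a rise of 0.14 ± 0.042 (SE; adjusted p = 0.00809). In females the rise was 0.10 ± 0.042 (SE; adjusted p = 0.0497), close to the threshold. Rpn10, another ubiquitin receptor, rose in both sexes of Set21, reading 175, 174 and 179 against 166, 162 and 161 CPM in males and 178, 180.3 and 169.8 against 163, 164 and 162 CPM in females, log2 changes of 0.11 ± 0.035 (SE; adjusted p = 0.00816) and 0.11 ± 0.035 (SE; adjusted p = 0.0104). The libraries of each pair of groups did not overlap.

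Rpn7, of the lid, fell in both sexes of Set21, reading 149, 147 and 143 against 162, 168 and 164 CPM in males and 150.2, 149 and 144.2 against 162, 170.5 and 166 CPM in females, changes of -0.17 ± 0.036 (SE; adjusted p = 0.000302) and -0.17 ± 0.036 (SE; adjusted p = 0.000432). It also fell with a log2 change of -0.12 ± 0.036 (SE; adjusted p = 0.0291) in H3.3K36RH3.2HWT males, a call lost without replicate 1 or 2 of either group. The exons of Rpn7 overlap CG34376 on the opposite strand over 6.32% of their length, and CG34376 had log2 changes of -0.29 (adjusted p = 3.57e-09), -0.25 (adjusted p = 6.99e-08) and -0.15 (adjusted p = 0.000544) in the same comparisons. Its part in the Rpn7 counts was not tested.

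Rpn5, also of the lid, fell in both sexes of H3.3WTH3.2K36R, reading 226, 228 and 223 against 246, 237 and 239 CPM in males and 225, 218 and 221 against 242, 239 and 242 CPM in females, changes of -0.095 ± 0.033 (SE; adjusted p = 0.0336) and -0.12 ± 0.033 (SE; adjusted p = 0.00598), and with a log2 change of -0.10 ± 0.033 (SE; adjusted p = 0.0136) in Set21 males. The H3.3WTH3.2K36R male call was lost without control replicate 1 or mutant replicate 3. Rpn12 fell with a log2 change of -0.14 ± 0.036 (SE; adjusted p = 0.00495) in H3.3WTH3.2K36R females. Rpn8, the partner of Rpn11, fell with a log2 change of -0.11 ± 0.035 (SE; adjusted p = 0.0399) in H3.3K36RH3.2HWT males with overlapping libraries, and not without replicate 1 or 2 of either group. Rpn11, which removes ubiquitin chains before degradation, did not pass the test in any mutant, but was higher in H3.3CtrlH3.2HWT than in H3.3WTH3.2HWT, with a log2 change of 0.18 ± 0.041 (SE; adjusted p = 0.0058) in males and 0.20 ± 0.041 (SE; adjusted p = 0.0025) in females. It read 200.3, 198 and 181 CPM in H3.3CtrlH3.2HWT males and 177, 164 and 172 CPM in H3.3WTH3.2HWT males.

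Of the autosomal ATPase genes, Rpt1 fell in both sexes of Set21, reading 208, 205 and 207 against 220.4, 227 and 225 CPM in males and 206, 206 and 207 against 220.0, 223 and 219 CPM in females. The changes were -0.11 ± 0.029 (SE; adjusted p = 0.00162) and -0.097 ± 0.029 (SE; adjusted p = 0.00716), and the female call was lost without control replicate 2. Rpt2 and Rpt5 passed the test in no comparison of a mutant with its control. In Set21 males their changes were -0.014 ± 0.037 (SE; adjusted p = 0.791) and 0.00081 ± 0.045 (SE; adjusted p = 0.991), beside falls of all 3 X-linked Rpt genes.

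Across both sexes of Set21, 4 subunits rose in males and in females (Prosbeta4, Prosbeta6, Rpn1 and Rpn10) and 4 fell in both (Prosalpha7, Prosbeta7, Rpn7 and Rpt1), where 16.1% of all genes rose and 15.9% fell in both. The alternative settings were not followed gene by gene for Rpn1 or for the male calls of Prosbeta4, Prosbeta6 and Prosalpha7. With replicate numbers as a block, 1 subunit rose in Set21 males. The female call of Prosalpha7 was lost under all 11 alternatives. In H3.3WTH3.2K36R 5 fell in both sexes, namely Prosalpha3, Prosalpha4, Prosalpha6, Prosalpha7 and Rpn5, where 8.89% of all genes did so, and in H3.3K36RH3.2HWT 1 did, Prosalpha4, where 2.01% of all genes did.

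Between the sexes of the 3 control genotypes, 1 of 32 subunits was higher in males, where 3.15% of all genes were, and 0 were lower, where 4.99% were. The exception was Prosbeta6, at 0.068 ± 0.02 (SE; adjusted p = 0.0286), a call that was lost without any of 6 single libraries (replicate 1 of H3.3WTH3.2HWT males, of H3.3CtrlH3.2HWT males or females or of yw females, replicate 2 of yw males, or replicate 3 of yw females). It was also lost without the H3.3WTH3.2HWT genotype, and in a fit of the compared libraries only or with the replicate block. The females of H3.3WTH3.2HWT held 7.52 to 15.5 CPM of roX2, an RNA of the male dosage compensation complex, against 36.3 to 49.5 in males of that genotype. Females held 2.08 to 10.6 CPM in H3.3K36RH3.2HWT, 1.09 to 7.99 in H3.3WTH3.2K36R and 1.10 to 4.74 in H3.3CtrlH3.2HWT. Those of yw held 0.0662 to 3.18 and those of Set21 0.0413 to 4.03 CPM. In males roX2 averaged 43.9 ± 4.88 CPM (SD) in Set21 against 71.2 ± 2.82 in yw. In H3.3WTH3.2K36R males it averaged 28.1 ± 1.82 against 43.3 ± 6.62 in their controls. The libraries did not overlap in either comparison. In H3.3K36RH3.2HWT males it averaged 42.1 ± 5.25 against 47.7 ± 1.65 in their controls, with overlap. The part of roX2 in the Prosbeta6 call, the male and female comparisons, the X-linked shares and the sex differences was not tested. None of the 4 X-linked subunits passed the test between control sexes, where 24.8% of X-linked genes were lower in males. Their median difference was -0.021 beside 0.020 for the 28 autosomal subunits. The X-linked 4 made up a lower share of the summed subunit level in males of each control genotype, without overlap. Libraries ran from 12.61% to 12.71% in yw males against 12.92% to 12.995% in yw females. They ran from 12.23% to 12.68% against 12.74% to 12.89% in H3.3WTH3.2HWT, and from 12.56% to 12.76% against 12.88% to 12.99% in H3.3CtrlH3.2HWT. Between control genotypes, H3.3CtrlH3.2HWT lay above H3.3WTH3.2HWT for 2 subunits in males and 1 in females, where 3.14% and 2.24% of all genes were higher, and below it for 0 and 1, where 3.3% and 2.02% were lower. The lower 1 was Rpn9, a lid subunit, at -0.10 ± 0.028 (SE; adjusted p = 0.0314), a call lost without replicate 1 or 3 of H3.3WTH3.2HWT or replicate 1 or 2 of H3.3CtrlH3.2HWT. H3.3WTH3.2HWT lay below yw for 5 subunits in males and 6 in females, where 12.8% and 9.64% of all genes were lower, and above it for 0, where 14.2% and 10.9% were higher. All 5 in males and 5 of the 6 in females belonged to the core particle. The male count was 3 without H3.3WTH3.2HWT replicate 2, yw replicate 1 or yw replicate 2, and the female count 3 without H3.3WTH3.2HWT replicate 2. The largest of these differences was -0.23, for Prosalpha6 in females.

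The paralogs were scarce in brain. Of the 16, 8 passed the filter, and the other 8, Prosalpha3T, Prosalpha4T1, Prosalpha4T2, Prosalpha6T, Prosbeta2R1, Prosbeta4R2, Prosbeta5R1 and Prosbeta5R2, had 3 to 55 reads each over all 36 libraries and at most 0.130 CPM in any. Prosbeta2R1, X-linked, was among them with 35 reads. Between 79.2% and 85.1% of counts from 1 to 4 in a library were even numbers, so low counts may stand for fewer fragments than reads. The most abundant paralog, Rpt3R, averaged 3.27 RPKM. Paralogs that passed the filter only through a group where they are high had to differ, so their calls and counts over them are a description.

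Rpt4R, a paralog of the ATPase Rpt4, showed the largest change. Outside H3.3WTH3.2K36R and Set21 it had at most 10 reads in any library. Rpt4R passed the filter only through these mutant libraries, so its calls and adjusted p-values are a description. It read 1.38, 1.3 and 1.39 CPM in H3.3WTH3.2K36R males against 0.0581, 0.0702 and 0.108 CPM in their controls, and 0.614, 0.618 and 0.425 against 0.0583, 0.0389 and 0.103 CPM in females. The log2 changes were 4.10 ± 0.69 (SE; adjusted p = 7.55e-05) and 3.03 ± 0.69 (SE; adjusted p = 0.00203), and the difference between the sexes did not pass the test, at 1.07 ± 0.96 (SE; adjusted p = 0.963). All 6 yw libraries held 0 reads, which allows up to 3 reads in a library. Against that floor Rpt4R was at least 4.44-fold higher in Set21 males and at least 3.77-fold higher in Set21 females, where libraries read 0.0189, 0.126 and 0.226 and 0.168, 0.0496 and 0.138 CPM (adjusted p = 0.000247 and 0.000468). The H3.3WTH3.2HWT controls were likewise at least 2.82-fold and 2.12-fold higher than yw in males and females. In H3.3K36RH3.2HWT it read 0.0357, 0.0577 and 0 CPM in males and 0.0206, 0.0735 and 0.0385 in females and did not pass the test.

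Rpt3R, a paralog of the ATPase Rpt3, fell in 5 of 6 comparisons. It read 3.65, 4.2 and 3.44 against 5.42, 5.99 and 5.15 CPM in H3.3WTH3.2K36R males and 2.95, 3.61 and 3.35 against 4.74, 5.24 and 5.5 CPM in females, log2 changes of -0.55 ± 0.10 (SE; adjusted p = 0.000183) and -0.64 ± 0.10 (SE; adjusted p = 3.45e-05). In Set21 it fell with a log2 change of -0.38 ± 0.10 (SE; adjusted p = 0.00362) in males and -0.52 ± 0.10 (SE; adjusted p = 0.000194) in females, and in H3.3K36RH3.2HWT, with a log2 change of -0.40 ± 0.10 (SE; adjusted p = 0.0124) in females, where the call was lost without control replicate 2 or mutant replicate 2. In H3.3K36RH3.2HWT males the change was -0.067 ± 0.10 (SE; adjusted p = 0.76).

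Rpt6R, a paralog of the ATPase Rpt6, fell in Set21, reading 0.774, 0.648 and 0.557 against 1.71, 1.46 and 1.7 CPM in males and 0.784, 0.562 and 0.706 against 1.77, 1.71 and 1.48 CPM in females, changes of -1.30 ± 0.26 (SE; adjusted p = 0.000133) and -1.28 ± 0.25 (SE; adjusted p = 0.000179). It rose in H3.3K36RH3.2HWT females, from 2.63, 1.64 and 2.82 to 4.65, 4.26 and 6.18 CPM, with a log2 change of 1.09 ± 0.24 (SE; adjusted p = 0.00308), and had a log2 change of 0.33 ± 0.23 (SE; adjusted p = 0.437) in males of that genotype. It was also higher in H3.3WTH3.2HWT than in yw, with a log2 change of 1.04 ± 0.24 (SE; adjusted p = 0.00187) in males and 0.84 ± 0.24 (SE; adjusted p = 0.0127) in females.

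Rpn13R, X-linked, fell in H3.3K36RH3.2HWT males, reading 1.59, 1.37 and 1.49 against 2.04, 2.31 and 2.09 CPM, with a log2 change of -0.53 ± 0.15 (SE; adjusted p = 0.0165), a call that was lost without control replicate 2 or mutant replicate 2. It was lower in control males than in control females, with a log2 change of -0.30 ± 0.083 (SE; adjusted p = 0.0211), a call lost without replicate 3 of H3.3WTH3.2HWT males or females, of H3.3CtrlH3.2HWT females or of yw males or females. Prosbeta2R2 rose in H3.3WTH3.2K36R males, from 0.0775, 0.0912 and 0.0645 to 0.224, 0.247 and 0.246 CPM, with a log2 change of 1.59 ± 0.52 (SE; adjusted p = 0.0246), and the call was lost without mutant replicate 2, mutant replicate 3 or any control library. Rpn12R rose in Set21 males, from 0.0346, 0.00921 and 0.02 to 0.085, 0.0732 and 0.0943 CPM, with a log2 change of 1.92 ± 0.78 (SE; adjusted p = 0.0455), and that call was lost without yw replicate 2 or 3 or any Set21 library. Rpn12R had more than 10 reads only in Set21 female replicates 2 and 3 (19 and 13 reads) and H3.3WTH3.2K36R male replicate 1 (12 reads). It passed the filter only through these mutant libraries, so its call is a description. Prosbeta4R1 passed the test in no comparison, at 1.59 ± 0.79 (SE; adjusted p = 0.142) in H3.3WTH3.2K36R males. The reads shared by Prosalpha1 and Prosalpha1R fell together in Set21 males, with a log2 change of -0.56 ± 0.18 (SE; adjusted p = 0.0134) and -0.57 ± 0.18 (SE; adjusted p = 0.00945), and the call of Prosalpha1R was lost without Set21 replicate 1. The exons of Prosalpha1 overlap the opposite-strand gene phr over 1.75% of their length, and phr had log2 changes of -2.04 (adjusted p = 1.52e-22) in Set21 males and -1.91 (adjusted p = 5.78e-22) in Set21 females. Its part in these counts was not tested.

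Germ-cell and testis markers also changed in these comparisons. The sum of vas, nos, ovo, AGO3, aub, piwi and zpg ran from 59.4 to 61.8 CPM in H3.3WTH3.2K36R males against 24.4 to 37.4 in their controls, and 6 of the 7 rose in each sex. Of 15 testis and sperm markers 8 were tested, 5 rose and 1 fell in males, 4 rose and 1 fell in females, and their sum ran from 34.8 to 35.9 CPM in H3.3WTH3.2K36R males against 17.5 to 18.6 in controls. Of these 15 markers, 11 stayed under 1 CPM in both groups, and 3 were at 0 in all control male libraries, while 0 were so in the mutant males. In Set21, 4 of the 7 germ-cell markers rose in each sex, with sums from 24.8 to 31.98 CPM in males against 18.1 to 19.8 in yw males. In H3.3K36RH3.2HWT, 3 of the 7 rose and 1 fell in males and 2 rose in females, and of the 8 testis markers 1 rose in males and 2 in females. In Set21, 2 testis markers rose and 1 fell in males, and 4 rose and 1 fell in females. Of the 8 paralogs tested, 2 rose and 1 fell in H3.3WTH3.2K36R males, 1 rose and 1 fell in females, 2 rose and 3 fell in Set21 males, 1 rose and 2 fell in Set21 females, 1 fell in H3.3K36RH3.2HWT males, and 1 rose and 1 fell in females. Of all genes tested, 12.3% rose and 13.1% fell in H3.3WTH3.2K36R males, and 11.1% and 13.7% in females. In Set21 the shares were 22.9% and 22% in males and 20.9% and 21.5% in females. In H3.3K36RH3.2HWT they were 5.88% and 4.08% in males and 3.44% and 2.9% in females. Several counts of the 8 paralogs lie near these shares. The part of the germ-cell and testis markers in the paralog changes was not tested.

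**Figure D5:**
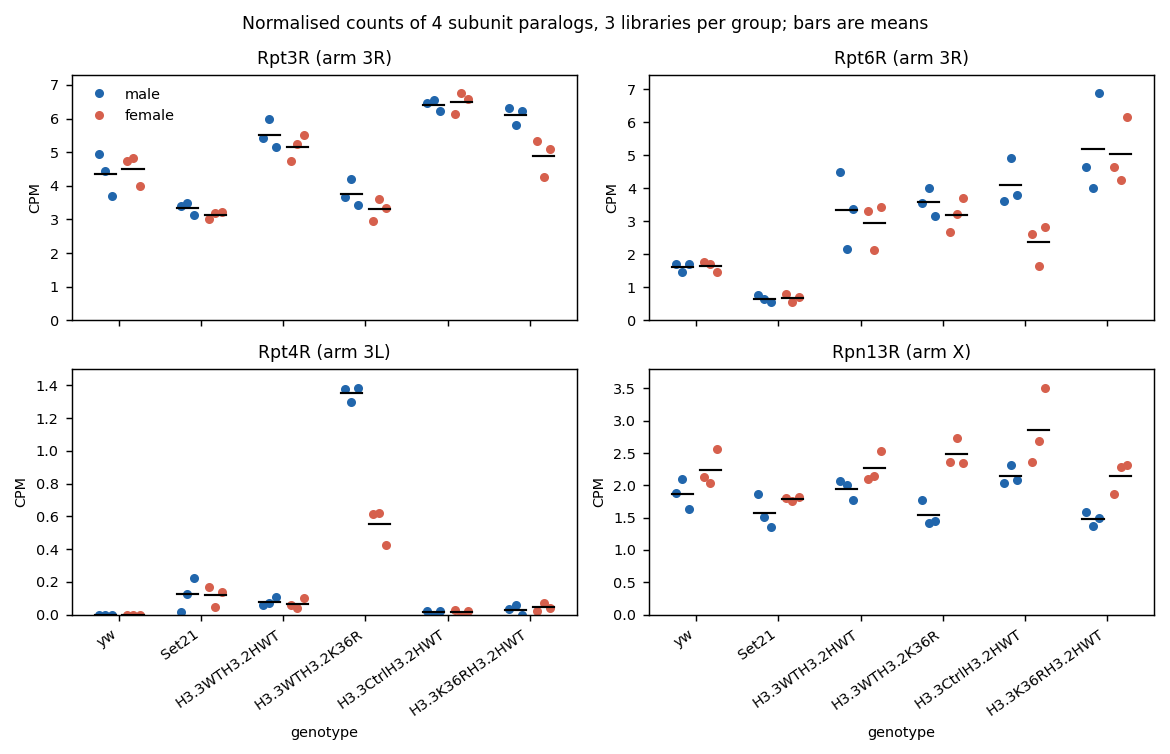
Normalised counts (CPM, vertical axes from 0) of the paralogs Rpt3R, Rpt6R, Rpt4R and Rpn13R by genotype, with a point for each library, males blue and females red, and bars for group means. Rpt4R is highest in H3.3WTH3.2K36R males at 1.30 to 1.39 CPM and at 0 in all 6 yw libraries.

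Genes that act with the proteasome were read from 6 lists, whose counts are to be read against the shares of all genes. Those were 13.1% lower and 12.3% higher in H3.3WTH3.2K36R males, 13.7% and 11.1% in females, 4.08% and 5.88% in H3.3K36RH3.2HWT males, 2.9% and 3.44% in females, 22% and 22.9% in Set21 males and 21.5% and 20.9% in Set21 females. With lists this short many counts lie near those shares, and none was tested as a list. Of 8 tested assembly factors, activators and inhibitors, 2 fell in H3.3WTH3.2K36R males, 3 in females, 0 in either sex of H3.3K36RH3.2HWT, and 3 in each sex of Set21, where 1 rose. Uch-L5, a deubiquitinase bound to the regulatory particle, fell in H3.3WTH3.2K36R, with a log2 change of -0.19 (adjusted p = 0.000515) in males and -0.23 (adjusted p = 8.88e-05) in females and in Set21, with a log2 change of -0.14 (adjusted p = 0.00347) and -0.21 (adjusted p = 8.41e-05). REG, the nuclear activator of the core, fell with a log2 change of -0.14 (adjusted p = 0.0349) and -0.15 (adjusted p = 0.0187) in H3.3WTH3.2K36R and with a log2 change of -0.14 (adjusted p = 0.0194) in Set21 males. Usp14, the other deubiquitinase of the particle, rose in Set21, with a log2 change of 0.17 (adjusted p = 0.000111) in males and 0.13 (adjusted p = 0.00184) in females. ntc, an F-box protein known from sperm differentiation, fell there, with a log2 change of -0.40 (adjusted p = 0.00158) and -0.35 (adjusted p = 0.00527), and the assembly chaperone Pomp fell in Set21 females, with a log2 change of -0.084 (adjusted p = 0.0331).

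Of 7 genes tied to transcription of proteasome genes, 1 fell in each of the 4 histone mutant comparisons and 2 in each sex of Set21, where 2 rose in females. cnc, the fly counterpart of the NRF factors that induce proteasome genes, fell in Set21, with a log2 change of -0.14 (adjusted p = 0.00124) in males and -0.13 (adjusted p = 0.0032) in females, and had a log2 change of 0.0083 (adjusted p = 0.894) and -0.041 (adjusted p = 0.523) in males of the H3.2 and H3.3 mutants. Dref, the factor that binds DNA replication-related elements, fell in H3.3WTH3.2K36R, with a log2 change of -0.15 (adjusted p = 0.00193) and -0.13 (adjusted p = 0.00774). Keap1, the inhibitor of cnc, and Pngl rose in Set21 females, with log2 changes of 0.21 (adjusted p = 0.00856) and 0.18 (adjusted p = 0.00324).

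rngo, an X-linked shuttle protein and protease that is also on that list, fell in Set21, with a log2 change of -0.38 (adjusted p = 2.83e-11) in males and -0.21 (adjusted p = 1.63e-06) in females, and in H3.3K36RH3.2HWT, with a log2 change of -0.10 (adjusted p = 0.0264) and -0.18 (adjusted p = 0.000145). Of the 7 shuttle receptors and segregase genes, 4 fell and 1 rose in Set21 males, 5 fell in Set21 females, 3 and 2 fell in H3.3WTH3.2K36R males and females, and 2 and 1 in H3.3K36RH3.2HWT. Ubqn fell with a log2 change of -0.25 (adjusted p = 2.73e-07) and -0.13 (adjusted p = 0.00213) in Set21 and with a log2 change of -0.13 (adjusted p = 0.00335) and -0.14 (adjusted p = 0.00172) in H3.3WTH3.2K36R. Npl4 and TER94, parts of the segregase that extracts ubiquitylated proteins, fell in Set21 females, with a log2 change of -0.17 (adjusted p = 1.38e-05) and -0.16 (adjusted p = 0.000115). Rad23, a shuttle on chromosome 4, rose in Set21 males, with a log2 change of 0.24 (adjusted p = 1.64e-07) and fell in Set21 females, with a log2 change of -0.087 (adjusted p = 0.0229).

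Of 13 genes for ubiquitin and its activating and conjugating enzymes, 4 rose and 1 fell in H3.3WTH3.2K36R males, 3 rose and 2 fell in females, 1 rose and 2 fell in H3.3K36RH3.2HWT males, 0 rose and 2 fell in females, and 2 rose and 7 fell in Set21 males and 3 and 5 in Set21 females. The polyubiquitin gene Ubi-p5E rose in H3.3WTH3.2K36R, with a log2 change of 0.22 (adjusted p = 0.00808) in males and 0.34 (adjusted p = 0.000149) in females, and fell in H3.3K36RH3.2HWT, with a log2 change of -0.60 (adjusted p = 3.91e-08) and -0.56 (adjusted p = 2.06e-07). Ubi-p63E, the other polyubiquitin gene, moved the same way, with a log2 change of 0.18 (adjusted p = 0.0194) and 0.24 (adjusted p = 0.00182) in the H3.2 mutant and -0.22 (adjusted p = 0.00772) and -0.18 (adjusted p = 0.0479) in the H3.3 mutant, and fell in Set21, with a log2 change of -0.34 (adjusted p = 1.06e-05) and -0.25 (adjusted p = 0.00065). Both genes consist of ubiquitin repeats, so reads may be split between them. The conjugating enzyme Ubc4 fell in H3.3WTH3.2K36R, with a log2 change of -0.14 (adjusted p = 0.00319) and -0.18 (adjusted p = 0.000405) and in Set21, with a log2 change of -0.28 (adjusted p = 1.54e-07) and -0.29 (adjusted p = 1.25e-07).

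Of 16 heat shock and folding genes tested, 0 rose and 0 fell in H3.3WTH3.2K36R males, 2 fell in females, 1 and 0 fell in H3.3K36RH3.2HWT males and females, and 2 rose and 2 fell in Set21 males and 3 fell in Set21 females. The median log2 change of the list in Set21 was 0.37 in males and -0.12 in females. Between controls the median was as far from 0 or further, at 0.71 in males and 0.23 in females for H3.3WTH3.2HWT against yw. For H3.3CtrlH3.2HWT against H3.3WTH3.2HWT it was 0.012 in males and -0.43 in females. In the sex difference of the Set21 response 0 of the 16 were higher and 1 lower, where 0.879% and 2.55% of all genes were. The pair that rose in males, Hsp70Bb and Hsp70Bc, are near-identical copies between which reads may be split. Hsc70-3, the chaperone of the endoplasmic reticulum, fell with a log2 change of -0.37 (adjusted p = 9.39e-08) and -0.14 (adjusted p = 0.0113) in Set21 males and females and with a log2 change of -0.20 (adjusted p = 0.00389) in H3.3K36RH3.2HWT males. Of 17 autophagy genes, 6 rose and 5 fell in Set21 males and 8 rose and 3 fell in Set21 females, 5 rose and 2 fell in H3.3WTH3.2K36R males, 1 rose in females, 1 rose and 2 fell in H3.3K36RH3.2HWT males, and 1 rose and 1 fell in females. ref(2)P, the receptor that carries ubiquitylated proteins to autophagosomes, rose in Set21, with a log2 change of 0.34 (adjusted p = 9.07e-06) and 0.39 (adjusted p = 1.86e-06), and Atg12, with a log2 change of 0.48 (adjusted p = 8.45e-08) and 0.38 (adjusted p = 5.01e-06). Atg8a, which coats autophagosome membranes, fell with a log2 change of -0.40 (adjusted p = 1.64e-12) and -0.17 (adjusted p = 9.03e-06).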

How the data were processed

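PolyA-selected RNA of 36 brain libraries was sequenced as paired ends (KAPA stranded kit), per the labels' protocols. The authors deposited 1 table of unnormalized read counts by gene. STAR 2.7.2a and Subread 2.0.3 are named in the submitters' processing notes, while build, annotation, strand setting and treatment of multiply mapped reads were not given in the sources read. Symbols, arms and summed exon lengths came from Ensembl release 115 (17527 of 17606 identifiers matched). Total reads per library ran from 82.5 to 143.8 M, and pairs of libraries within a group differed beyond counting error (chi-square over its degrees of freedom from 7.93 to 91.3).

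Counts were filtered (filterByExpr, minimum count 10, 12167 genes left), scaled with TMM factors (0.97 to 1.05) and fitted in edgeR 4.0.16 (R 4.3.3, limma 3.58.1) with a mean for each of 12 groups. This left 24 residual degrees of freedom, and the biological coefficient of variation was 0.118. Quasi-likelihood tests were 2-sided, adjusted by Benjamini-Hochberg over all genes and called at 0.05. SE is the absolute log2 fold change over the square root of F. RPKM is CPM per kb of exon. A group with 0 reads was set to a floor of 3 reads per library. The method was tested on simulated counts.

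Always named were the catalytic subunits, Rpn11, Rpn10 and X-linked members; further, up to 8 called ubiquitous subunits of smallest p per mutant comparison, the tested paralogs, up to 4 called members per other comparison, and up to 4 called genes per list and mutant comparison. Further called members were named after their values were seen, and the alternatives were not followed gene by gene for these. Members and lists were chosen with earlier results of these data known.

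Alternatives were DESeq2 1.42.0, RLE factors, no filter, a fit of the compared libraries only, a replicate block and each library left out. Leaving H3.3WTH3.2HWT out of the sex comparison, and counts without Prosalpha1, were added after seeing the data. Replicate numbers of the labels paired libraries by the correlation of deviations from group means only in H3.3WTH3.2K36R females and controls (r from 0.133 to 0.441) and in H3.3WTH3.2HWT and yw females (0.128 to 0.179). Sequences and promoter motifs were not analysed here. The list entry Ecm29 was not matched.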

Additional observations from a re-analysis of the deposited data

Results flagged for a closer look

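The response to Set21 differed between the sexes for 4 subunits, all X-linked, by the interaction test of the fit (male response minus female response, log2 scale). The differences were -0.252 for Rpt3, -0.289 for Rpt6, -0.236 for Prosalpha4 and -0.242 for Rpt4. The log2 changes were -0.30, -0.28, -0.29 and -0.15 in Set21 males in that order, and -0.05, 0.012, -0.058 and 0.094 in Set21 females. Groups of 3 libraries are too small for a test of single outlying libraries.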

How the results depend on the processing

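All 4 X-linked calls in Set21 males and in the sex difference held in every alternative, and no call reversed among the named members, while some values that passed no test changed sign, such as Rpn12R in H3.3WTH3.2K36R males (log2 change 0.10, and -0.60 at the lowest). For these members 1447 values kept their side of the threshold, 163 lost and 19 gained a call. Of 34 counts and medians, 18 moved by no more than the limits set. The cause of the shifts below was not tested.

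With RLE factors, 3 subunits fell in H3.3WTH3.2K36R males and 5 in females, where 1 rose, as with DESeq2 (Prosbeta1). Without the filter 4 fell in those males, and 0 were lower in H3.3CtrlH3.2HWT than in H3.3WTH3.2HWT females. Fitting the compared libraries only, 2 fell in H3.3WTH3.2K36R males, 4 in females, 2 in H3.3K36RH3.2HWT males and 0 in females. That fit left 0 higher in control males than females, as did leaving out H3.3WTH3.2HWT. It left 1 higher in H3.3CtrlH3.2HWT than H3.3WTH3.2HWT males, 0 higher and 0 lower in females, and 2 lower in H3.3WTH3.2HWT than yw males.

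With the replicate block, 2 fell in H3.3WTH3.2K36R males, 7 in the paired H3.3WTH3.2K36R females, 1 in H3.3K36RH3.2HWT males, 0 in females, and 6 fell and 1 rose in Set21 males. Under the block 0 were higher in control males, 0 higher in H3.3CtrlH3.2HWT males, 0 higher and 0 lower in H3.3CtrlH3.2HWT females, and 3 lower in H3.3WTH3.2HWT than yw males and 7 in the paired females. Outside the paired comparisons libraries share only a number.

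Leaving out single libraries, the count that fell ranged from 2 to 9 in H3.3WTH3.2K36R males (median log2 change -0.086 to -0.021), 4 to 8 in females, 1 to 12 in H3.3K36RH3.2HWT males, 8 to 14 in Set21 males (median -0.056 to -0.036) and 2 to 4 in Set21 females. From 0 to 2 were higher in control males, 0 to 1 lower in H3.3CtrlH3.2HWT than H3.3WTH3.2HWT females, and 3 to 6 lower in H3.3WTH3.2HWT than yw in males and in females. The median of H3.3K36RH3.2HWT females ranged from -0.045 to 0.025. The near-identical reads of Prosalpha1 and the few reads of most paralogs limit what their counts show.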
